A study of Mus musculus with 26 samples.

Results

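Expression of 9 genes that mark monocytes and macrophages was followed in mouse bone marrow leukocytes: Csf1r, Ccr2, Cx3cr1, Cd14, Fcgr1, Cd68, Lyz2, Vcan and F13a1. They were found by gene symbol in the deposited raw intensity table, where they have 10 probes among 25697 and are 9 of 17899 genes. All 9 had a probe that passed the filter on dim probes, as did 10792 genes in all. Another 2 probes carry the older symbol Lyzs and map to Lyz2 by Entrez identifier. They are given as further probes of Lyz2. Tnf and Cd83, a pair of genes induced in activated leukocytes, serve as the reference against which the monocyte genes are set on each array.

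The cells came from male SCID mice (CB17/Icr-Prkdcscid) aged 6 to 8 weeks, which carry a Prkdc mutation that blocks T and B cell maturation. All groups shared this genotype and carried an engrafted human leukemia, of the acute lymphoblastic kind. The sort from femoral marrow gated the leukemia cells out. Mice were kept in their home cages as controls, were restrained, or were restrained and given propranolol, which blocks beta-adrenergic receptors. Each of 2 experiments has 5 control, 5 restraint and 3 restraint plus propranolol arrays, so the 26 arrays form 6 groups. Whether every array is from its own mouse is not in the labels, so p-values measure the spread between arrays, which may in part be technical.

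Monocytes arise in the marrow from progenitors that depend on the CSF1 receptor, leave it by way of the chemokine receptor CCR2 and, as they turn into patrolling cells, gain the fractalkine receptor CX3CR1. CD14 binds bacterial lipopolysaccharide and hands it to TLR4 with its partner MD-2, which is encoded by Ly96. CD64, encoded by Fcgr1, is the high-affinity receptor for immunoglobulin G. CD68 is a glycoprotein of lysosomal membranes, and lysozyme, from Lyz2, cuts bacterial cell walls. Versican is a matrix proteoglycan and factor XIII-A crosslinks fibrin. Stress acts on this lineage through noradrenaline from marrow nerves and through adrenal glucocorticoids.

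All values are log2 intensities after background correction and quantile normalization, and a change is a difference of such values. A gene was called changed when limma's adjusted p over all 15061 probes was under 0.05. Between 39.5% and 51.2% of all probes were detected per array, and precision is limited by how many arrays there are. Of the 9 genes, 7 were detected on all 26 arrays, Fcgr1 on 21 and Vcan on 14. The beadchips are 4 slides, and restraint and control arrays share a slide on slide 1 (experiment 1) and slide 3 (experiment 2).

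Under restraint 1 of the 9 genes passed the test. It was Cd14, which rose by 0.81 ± 0.19 (SE; 10 restraint against 10 control arrays). Cd68 was 0.66 ± 0.19 higher without passing, and Vcan, which was not above background on 9 of 10 controls, did not pass. The receptors Csf1r, Ccr2 and Cx3cr1, the Fc receptor gene Fcgr1, and Lyz2 and F13a1 had changes between -0.16 and 0.26. Over all genes, 2.23% were called in either direction and 1.04% were called higher. Vcan passed the filter on dim probes through restraint and propranolol arrays and 1 control. The median change of the 9 genes was 0.07 against -0.00 over all genes tested, with 6 positive and 3 negative. In such bulk samples, fewer cells of a type and less RNA per cell cannot be told apart.

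**Figure D1:**
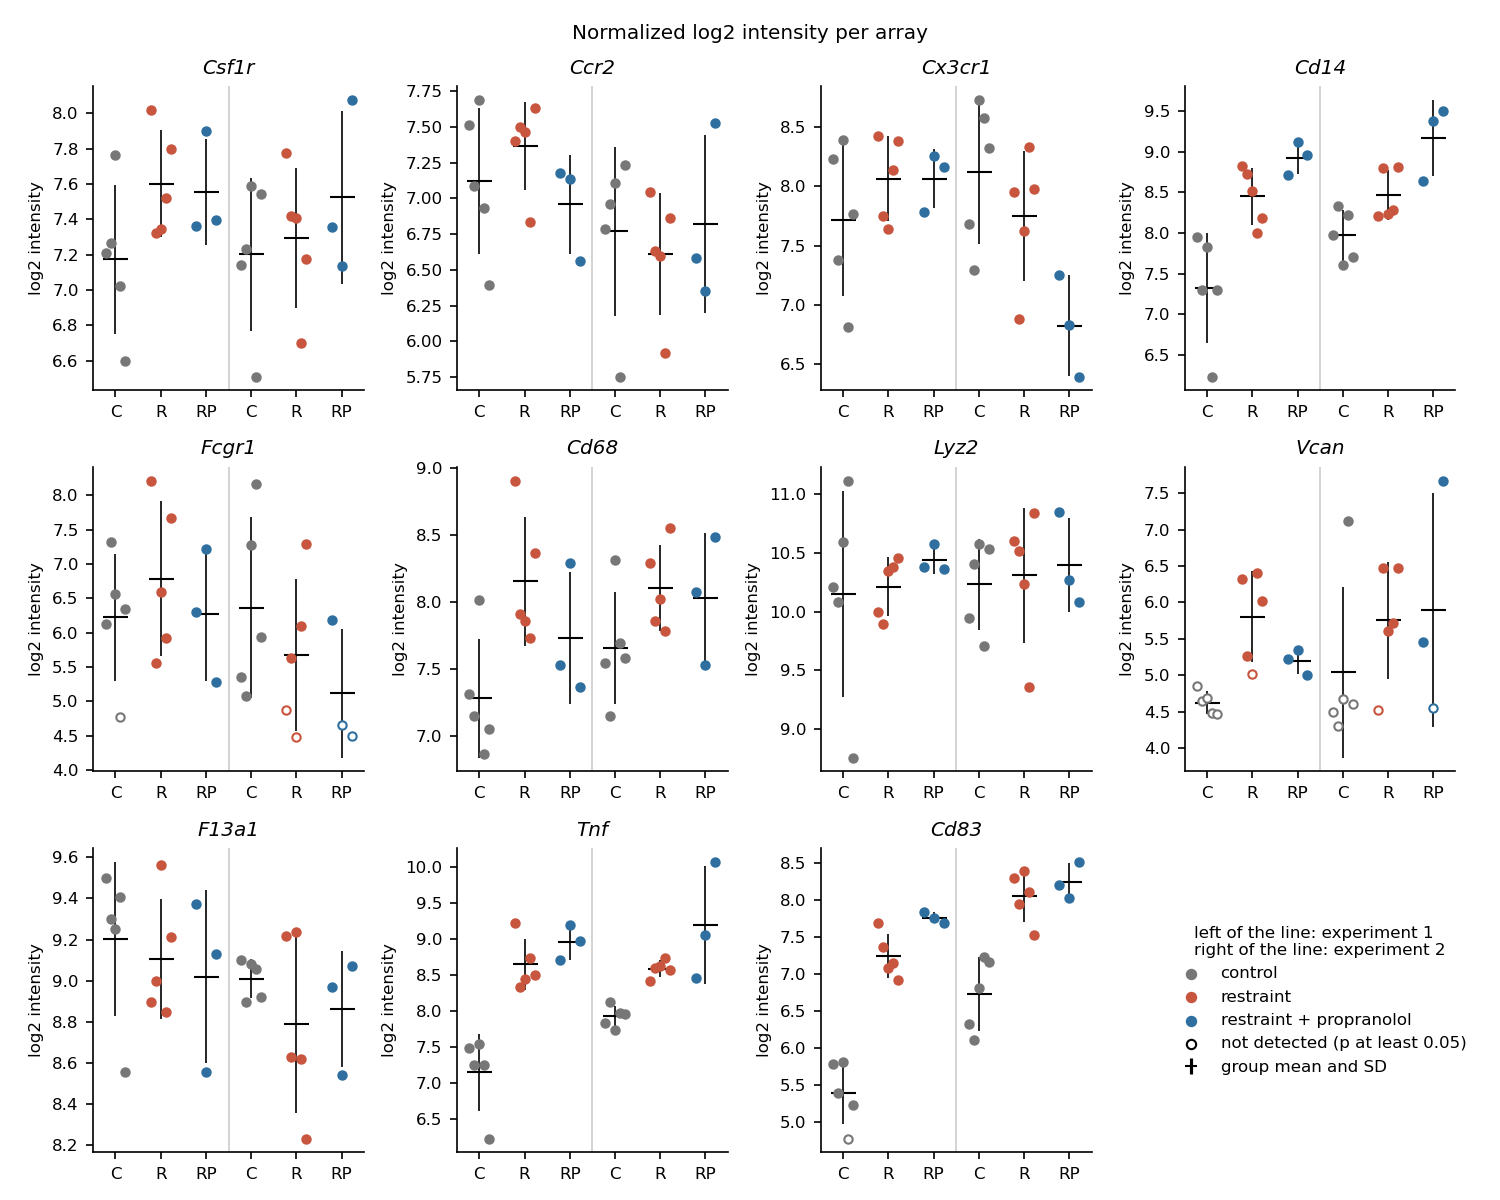
Normalized log2 intensity of the 9 monocyte genes, Tnf and Cd83 on each array (y axis, its own range in each panel) in 6 groups (x axis: C control, R restraint, RP restraint plus propranolol; experiment 1 left of the line), with group mean and SD; open points were not detected. The Cd14 means run from 7.32 to 8.45 to 8.93 over C, R and RP in experiment 1 and from 7.97 to 8.47 to 9.17 in experiment 2.

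Csf1r encodes the receptor for CSF1 and interleukin-34. Its brighter probe, ILMN_2710819, read 7.21, 7.27, 7.76, 7.02 and 6.60 on the control arrays of experiment 1 and 8.02, 7.32, 7.35, 7.52 and 7.80 on the restraint arrays. In experiment 2 the controls read 7.14, 7.23, 7.59, 6.51 and 7.54 and the restraint arrays 7.78, 7.42, 7.41, 6.70 and 7.17. The groups overlapped in both experiments, and 8 of 10 restraint arrays lay above the control mean of their experiment. The change was 0.26 ± 0.17 (95% interval -0.09 to 0.61, adjusted p = 0.536). The dimmer probe, ILMN_1230485, gave 0.36 ± 0.24 (adjusted p = 0.553).

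Ccr2 is the receptor for CCL2 and marks the classical monocytes that enter the blood. Its control values ran from 5.75 to 7.69 with a median of 7.02, and its restraint values from 5.92 to 7.63 with a median of 6.95. The ranges nearly coincided, and the change of 0.04 ± 0.20 had a 95% interval of -0.38 to 0.46 (adjusted p = 0.948). The estimate was 0.24 in experiment 1 and -0.16 in experiment 2.

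Cx3cr1 marks patrolling monocytes and many resident macrophages. It ranged from 6.82 to 8.73 (median 8.00) in controls and from 6.88 to 8.42 (median 7.97) under restraint. Its change of -0.01 ± 0.25 (95% interval -0.53 to 0.51, adjusted p = 0.992) combined 0.35 in experiment 1 with -0.37 in experiment 2.

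Cd14 was detected on every array. In experiment 1 the controls read 7.95, 7.30, 7.83, 6.23 and 7.30 and the restraint arrays 8.82, 8.72, 8.52, 8.00 and 8.19. In experiment 2 the controls read 7.97, 8.34, 7.60, 8.23 and 7.71 and the restraint arrays 8.21, 8.80, 8.24, 8.29 and 8.81. Every restraint array of experiment 1 was above every control, whereas in experiment 2 the lowest 3 restraint arrays fell within the control range. All 10 restraint arrays lay above the control mean of their experiment.

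The Cd14 change was 0.81 ± 0.19 (1.76-fold, adjusted p = 0.0229), from 1.13 ± 0.26 in experiment 1 and 0.50 ± 0.26 in experiment 2. The call was lost with slide as a fixed term (0.96, adjusted p = 0.0564) and without the first restraint array of experiment 1 (0.75, adjusted p = 0.0537). Adjusted p lay between 0.00803 and 0.0564 over 12 alternative settings of the fit. Within slide 1 the difference was 1.36 (3 restraint against 5 control arrays, exact permutation p = 0.0357), and within slide 3 it was 0.50 (5 against 2, exact permutation p = 0.143).

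Fcgr1 had the largest error of the 9. Controls ran from 4.77 to 8.16 and restraint arrays from 4.49 to 8.21, with medians of 6.24 and 6.01. It was detected on 9 of 10 control and 8 of 10 restraint arrays. Its change of -0.06 ± 0.46 has a 95% interval of -0.999 to 0.874 (adjusted p = 0.968), the widest of the 9 genes.

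Cd68 read 7.32, 7.15, 8.02, 6.87 and 7.06 on the controls of experiment 1 and 8.90, 7.91, 7.86, 7.73 and 8.36 on the restraint arrays. In experiment 2 the controls read 7.55, 7.15, 8.31, 7.69 and 7.58 and the restraint arrays 8.29, 7.86, 8.02, 7.78 and 8.55. In both experiments the groups overlapped through 1 high control array, the third of each, and all 10 restraint arrays lay above the control mean of their experiment.

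The change of Cd68 was 0.66 ± 0.19 (95% interval 0.28 to 1.04, adjusted p = 0.0630). It passed when array weights were used (adjusted p = 0.0289) and when the third control of experiment 1 (0.0307), the third control of experiment 2 (0.0331), the fourth restraint array of experiment 2 (0.0446) or the third propranolol array of experiment 2 (0.0464) was left out. Within slide 1 the difference was 0.94 (exact permutation p = 0.0714), and within slide 3 it was 0.46 (exact permutation p = 0.0952).

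The bases before the gene starts of Cd68, Tnf and Cx3cr1 are printed as examples of a gene that rose (Tnf), one that was higher without passing (Cd68) and one with a change near 0 (Cx3cr1). Each sequence holds the 250 bases before the start in RefSeq (GRCm38.p6), and 8 of the 11 genes had an entry. Csf1r, Cd14 and Cd83 had none, so the sequences say nothing about Cd14, the gene that passed. Capitals mark matches to the PU.1 core GAGGAA, the AP-1 motif TGANTCA and, on the sense strand only, the TATA box TATAAA. The NF-kappaB consensus was also searched. All but the TATA box were searched on both strands.
Cd68 (chr11:69666171-69666420, minus strand): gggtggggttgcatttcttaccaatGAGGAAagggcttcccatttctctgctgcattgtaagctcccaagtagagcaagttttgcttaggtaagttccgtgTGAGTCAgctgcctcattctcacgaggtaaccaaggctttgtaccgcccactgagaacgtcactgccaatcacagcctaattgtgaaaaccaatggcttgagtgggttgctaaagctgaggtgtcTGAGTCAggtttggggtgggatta
Tnf (chr17:35202008-35202257, minus strand): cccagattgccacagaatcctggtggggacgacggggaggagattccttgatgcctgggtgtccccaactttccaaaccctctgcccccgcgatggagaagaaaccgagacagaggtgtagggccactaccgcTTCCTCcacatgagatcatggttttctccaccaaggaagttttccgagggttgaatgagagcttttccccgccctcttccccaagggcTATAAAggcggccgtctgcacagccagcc
Cx3cr1 (chr9:120068297-120068546, minus strand): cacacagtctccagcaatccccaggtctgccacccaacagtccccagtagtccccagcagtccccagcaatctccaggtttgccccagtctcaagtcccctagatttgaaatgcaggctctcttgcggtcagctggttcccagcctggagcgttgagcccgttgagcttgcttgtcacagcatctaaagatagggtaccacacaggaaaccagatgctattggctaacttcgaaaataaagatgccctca

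The Cd68 window holds 2 matches to the AP-1 motif and 1 to the PU.1 core. The Tnf window holds 1 PU.1 core, on the opposite strand, and a TATA box that begins 29 bases before the start. The Cx3cr1 window holds no match to any of the 4 motifs. The windows of Vcan, Ccr2 and Lyz2 also hold none, while those of Fcgr1 and of 1 of the 2 starts of F13a1 each hold a PU.1 core. Of the 32851 windows in the RefSeq table, 23.3% hold the PU.1 core, 6.75% the AP-1 motif, 3.90% the NF-kappaB consensus and 7.59% the TATA box. These are matches of letters and were not tested against binding.

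Lyz2 is abundant in granulocytes as well as in monocytes. Probe ILMN_1252076 had control values from 8.75 to 11.11 and restraint values from 9.36 to 10.84, with medians of 10.31 and 10.36, and differed by 0.07 ± 0.22 (adjusted p = 0.921). The probes under the older symbol had smaller errors, with changes of -0.02 ± 0.09 (ILMN_2939681) and -0.07 ± 0.11 (ILMN_2766780). After the group means were removed, the pair of older-symbol probes varied together (Pearson r = 0.75, rho = 0.77 over 26 arrays, adjusted permutation p = 0.00016 for r). Probe ILMN_1252076 gave r = -0.17 with the brighter of them (rho = 0.05, adjusted permutation p = 0.555) and r = 0.28 with the other (rho = 0.43, adjusted permutation p = 0.291). Lyz1 is a near-identical copy, so the signal of these probes cannot be assigned to Lyz2 alone.

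Vcan was at the edge of detection. The 5 controls of experiment 1 read 4.86, 4.64, 4.68, 4.48 and 4.47, none of them detected, and the restraint arrays read 6.33, 5.27, 5.02, 6.41 and 6.02, with 4 detected. In experiment 2 the controls read 4.50, 4.30, 4.68, 7.12 and 4.61 and the restraint arrays 4.52, 6.47, 5.60, 5.71 and 6.48. The fourth control of experiment 2 was the single control in which Vcan was detected, against 8 of 10 restraint arrays.

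In experiment 1 the restraint mean of Vcan was 1.80-fold above a floor for the controls, set on each array by the lowest signal among detected probes. Vcan was detected on 4 of those 5 restraint arrays and the values are background-corrected, so 1.80 is no strict lower bound. The measured group means there were 5.81 and 4.63. Over both experiments the fit gave 0.95 ± 0.35 (adjusted p = 0.187), but 9 of its 10 control values were not above background, so this size is no measured difference between levels. The fit passed without the fourth control of experiment 2 (1.20, adjusted p = 0.0328), with array weights (adjusted p = 0.00399) and without the 3 arrays of lowest weight (adjusted p = 0.00535, a setting chosen after the data were seen), under the same limit. Within slide 3, where that control is 1 of 2, the fitted sign turned (-0.11, exact permutation p = 0.952).

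F13a1 encodes the factor XIII subunit that monocytes, macrophages and megakaryocytes make. It read 8.56 to 9.50 in controls (median 9.09) and 8.23 to 9.56 under restraint (median 8.95). Its change of -0.16 ± 0.14 had a 95% interval of -0.46 to 0.13 (adjusted p = 0.676). Of the 10 restraint arrays, 4 lay above the control mean of their experiment.

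Groups that did not overlap were counted as a second view of the same arrays. In experiment 1, 2 of the 9 genes (Cd14 and Vcan) had restraint arrays all above the controls, where 3.42% of all genes had separate groups in either direction. Vcan was not detected on any of those controls and passed the filter through other arrays, which leaves Cd14 as the gene measured on both sides. In experiment 2 it was 0 of 9, against 1.66% of all genes. The difference between experiments passed for none of the 9 genes (0 of 9 at unadjusted p under 0.05), and 0 of 10792 genes passed it in limma, with 355 at unadjusted p under 0.05.

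Both reference genes rose under restraint. Tnf, an early cytokine of activated myeloid cells, read 7.48, 7.25, 7.54, 7.25 and 6.22 on the controls of experiment 1 and 9.22, 8.34, 8.45, 8.74 and 8.50 on the restraint arrays. In experiment 2 the controls read 7.83, 8.13, 7.74, 7.97 and 7.96 and the restraint arrays 8.41, 8.59, 8.62, 8.74 and 8.57. The groups were separate in both experiments, and the change was 1.08 ± 0.19 (adjusted p = 0.00317). It was 1.50 in experiment 1 and 0.66 in experiment 2 (unadjusted limma p for the difference = 0.0248, adjusted p = 1.00).

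Cd83, a surface protein of activated dendritic cells and other leukocytes, read 5.78, 5.40, 5.82, 4.78 and 5.23 on the controls of experiment 1 and 7.68, 7.37, 7.08, 7.15 and 6.92 on the restraint arrays. In experiment 2 it read 6.33, 6.11, 6.82, 7.23 and 7.16 on the controls and 8.29, 7.94, 8.39, 8.10 and 7.52 on the restraint arrays. The fourth of the controls in experiment 1 was not detected. The groups did not overlap in either experiment, and the change was 1.58 ± 0.17 (adjusted p = 1.99e-05). Within slide 1 the differences were 1.52 for Tnf and 1.98 for Cd83 (exact permutation p = 0.0179 each, the smallest possible), and within slide 3 they were 0.62 and 0.85 (0.0476 each, the smallest possible). Without background correction, on quantile-normalized raw intensities, the changes were 0.78 for Cd83, 0.74 for Tnf, 0.55 for Cd14, 0.43 for Cd68 and 0.29 for Vcan.

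Set against Tnf on each array, 6 of the 9 genes changed by less than Tnf did. These were Csf1r, Ccr2, Cx3cr1, Fcgr1, Lyz2 and F13a1, for which the log2 difference of Tnf minus the gene grew by 0.82 to 1.24 under restraint (exact permutation within experiments, 63504 relabellings, adjusted over 18 tests, p between 0.000378 and 0.0435). For Cd14 the difference grew by 0.27 ± 0.22 (adjusted exact p = 0.234, in 7 of 10 arrays), for Cd68 by 0.43 ± 0.20 (adjusted exact p = 0.0637, in 8 of 10) and for Vcan by 0.13 ± 0.34 (adjusted exact p = 0.708, in 6 of 10, with the control level of Vcan mostly below background). A p that misses the threshold does not show that these 3 genes changed as Tnf did. Tnf was chosen with earlier results of these data known and rose on these same arrays. For a gene with a change near 0, a small p therefore mostly restates the rise of Tnf.

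Against Cd83, 8 of the 9 genes changed by less. The difference of Cd83 minus Cd14 grew by 0.77 ± 0.22 (adjusted exact p = 0.00378, in 9 of 10 arrays) and that of Cd83 minus Cd68 by 0.92 ± 0.20 (adjusted exact p = 0.00107, in 9 of 10). The remaining gene was Vcan, with 0.63 ± 0.36 (adjusted exact p = 0.0944). The limit given for Tnf holds here too, since Cd83 also rose on these same arrays. Cd83 was near background on the controls of experiment 1 (4.78 to 5.82, detected on 4 of 5). The sizes depend on background correction, without which the changes of Cd83 and Cd14 given above lay closer together. Under other settings and with each array left out, 13 to 16 of the 18 differences passed.

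Relative to the control mean of its experiment, Cd83 stood between 0.79 and 2.28 higher on the 10 restraint arrays and Tnf between 0.49 and 2.08 higher. The median of the 9 genes stood between -0.27 and 0.85. It was below the change of Tnf and below that of Cd83 on 10 of 10 restraint arrays and on 6 of 6 propranolol arrays. On the 10 control arrays it was below Tnf on 7 and below Cd83 on 5.

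**Figure D2:**
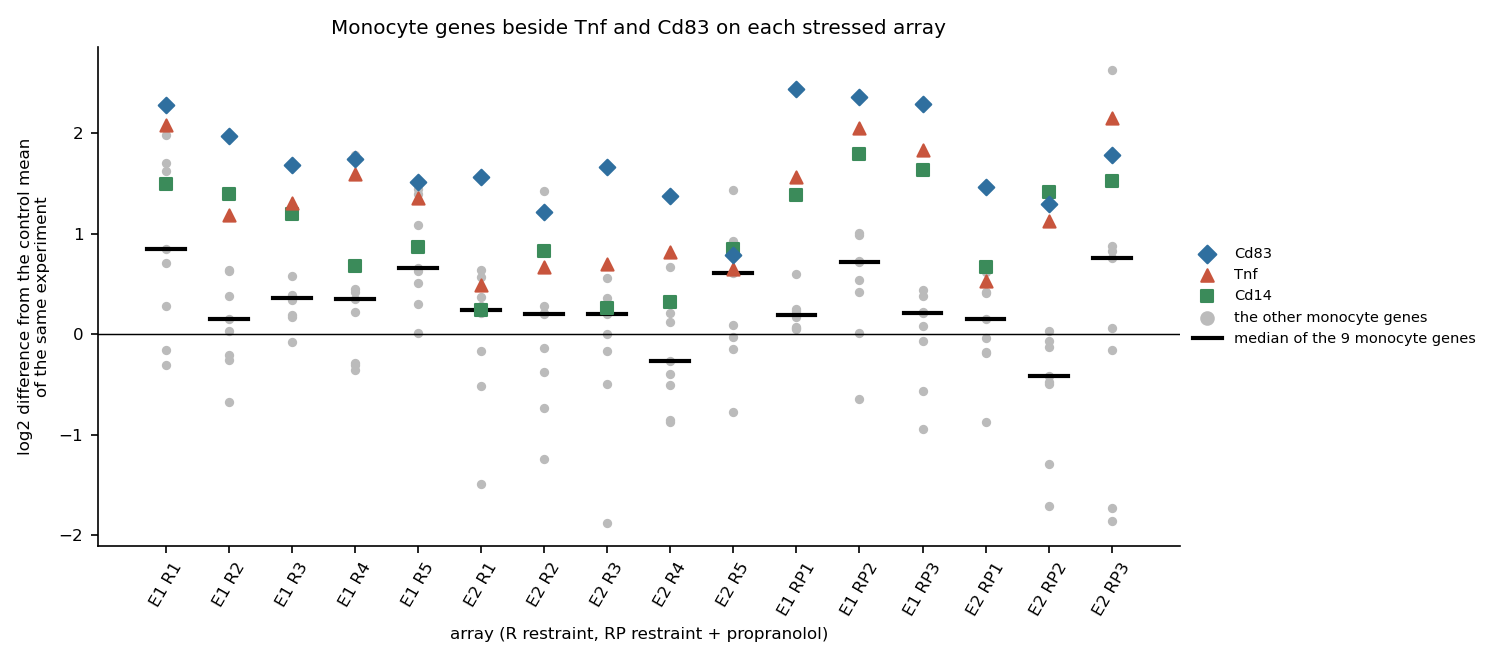
Log2 difference from the control mean of the same experiment (y axis) on each restraint (R) and restraint plus propranolol (RP) array (x axis), for Cd83, Tnf, Cd14 and the other 8 monocyte genes, with the median of all 9 as a bar. The bar lies below the Tnf and Cd83 symbols on all 16 arrays, and the Cd14 squares sit above 0 on each of them.

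The spread within groups was examined after each group's mean was removed, since conditions form separate clusters. Of 18 relations of a monocyte gene with Tnf or Cd83 over 26 arrays, 0 passed after adjustment (permutation within groups), and 3 had an unadjusted permutation p of r under 0.05. Those 3 were Tnf with Csf1r (r = 0.52, Spearman rho = 0.46, adjusted permutation p = 0.229), Cd83 with Cx3cr1 (r = 0.53, rho = 0.51, adjusted permutation p = 0.229) and Cd83 with Cd68 (r = 0.43, rho = 0.53, adjusted permutation p = 0.229), the adjusted p being that of r. Each r weakened to between 0.30 and 0.32 without the 2 arrays farthest from the median. By rho, Tnf with Vcan also had an unadjusted p under 0.05 (rho = 0.51, r = 0.47, unadjusted permutation p = 0.0119 by rho and 0.0510 by r, adjusted permutation p = 0.111 and 0.229).

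Among the 9 genes themselves, 2 of 36 pairs passed by both measures. Csf1r varied with Ccr2 (r = 0.83, rho = 0.74, adjusted permutation p = 0.0054 and 0.0130) and with Cd68 (r = 0.66, rho = 0.64, adjusted permutation p = 0.0272 and 0.0351). Without the 2 farthest arrays r was 0.77 and 0.68. With deviations taken from the mean of each group and slide, r was 0.83 and 0.69 over 25 arrays (permutation p = 0.000260 and 0.000910), an alternative added after the data were seen. The probes of Csf1r gave r = 0.85 with each other. By rho alone, Cx3cr1 with Fcgr1 (0.61), Cx3cr1 with Cd68 (0.57) and Fcgr1 with Cd68 (0.59) also passed (adjusted permutation p = 0.0351 each), where r gave 0.0611. The median r over the 36 pairs was 0.15. Csf1r and Ccr2 lay far from their group means on some arrays with few probes detected. The fourth control of experiment 2 (42.5% detected) was 0.69 lower for Csf1r and 1.01 lower for Ccr2. The fifth control of experiment 1 (44.6%) was 0.57 and 0.73 lower. The third propranolol array of experiment 2 (39.5%) was high for both. So was the third control of experiment 1, where 51.2% were detected. Whether array quality makes these genes vary together was not tested.

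**Figure D3:**
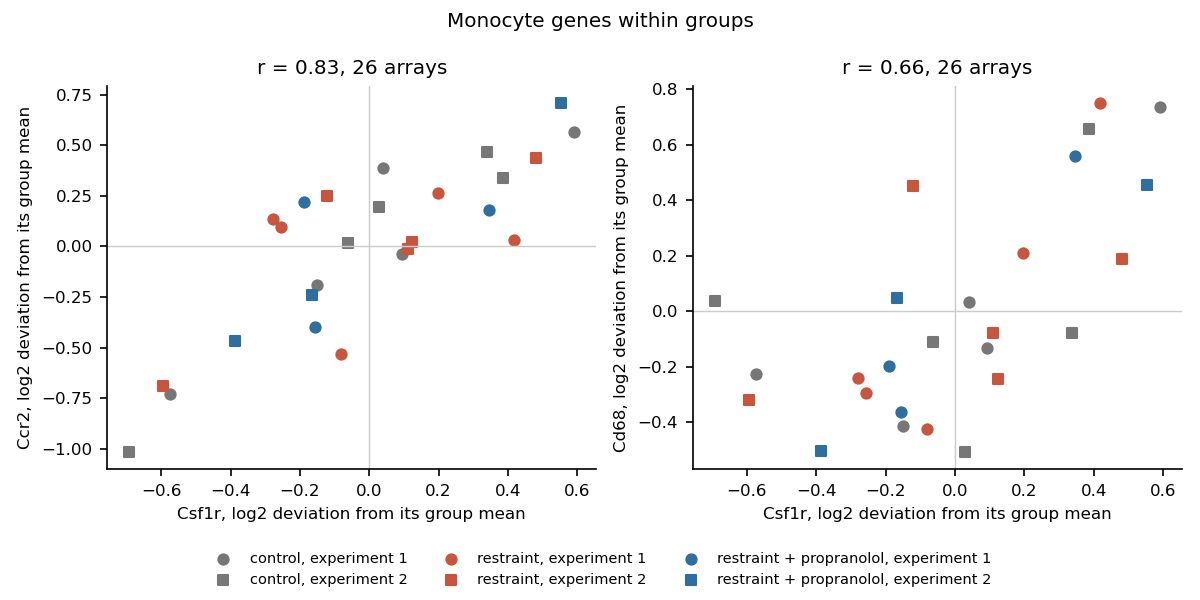
Deviation of Ccr2 (left) and Cd68 (right) from its group mean against that of Csf1r, both in log2 intensity, for 26 arrays coloured by condition and shaped by experiment. Arrays with high Csf1r for their group also had high Ccr2 (r = 0.83) and high Cd68 (r = 0.66).

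With propranolol added to restraint, Cd14 read 8.71, 9.12 and 8.95 in experiment 1 and 8.64, 9.38 and 9.50 in experiment 2, and all 6 lay above the restraint mean of their experiment. Against restraint alone Cd14 was 0.59 ± 0.22 higher, which did not pass (unadjusted p = 0.0115, adjusted p = 0.683). The slide shared by both conditions in experiment 1 gave 0.83 (3 against 2 arrays, exact permutation p = 0.1, the smallest possible). In experiment 2 the array at 8.64 shares slide 3 with the restraint arrays and lay within their range of 8.21 to 8.81. The arrays at 9.38 and 9.50 are on slide 4, which holds no restraint array, and 9.50 is from the array of lowest weight (0.147). With each array left out the change ran from 0.53 to 0.71 (limma adjusted p between 0.482 and 0.918).

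In that comparison 0 of the 9 genes and 0 of the 10792 genes passed in limma (0% called), and 661 of all genes had an unadjusted p under 0.05. Array weights gave 7 calls, of which 0 were among the 9. The median change of the 9 genes was -0.10 against -0.01 over all genes, with 3 positive and 6 negative. Tnf was 0.46 ± 0.22 and Cd83 0.36 ± 0.20 higher than under restraint alone (adjusted p = 0.795 and 0.813). The 95% intervals of the 9 genes reached from 0.34 to 1.08 to either side, so changes of that size could not be resolved.

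Compared with control, Cd14 rose under restraint plus propranolol by 1.40 ± 0.22 (2.64-fold, adjusted p = 0.000314, above the control mean on 6 of 6 arrays). The rise was 1.60 ± 0.30 in experiment 1 and 1.20 ± 0.30 in experiment 2. With slide as a fixed term it was 1.45 with adjusted p = 0.103. No propranolol array of experiment 1 shares a slide with a control of that experiment, so slide and condition cannot be told apart there. In experiment 2 only the first propranolol array shares a slide with controls, slide 3. Cd14 was the 1 of 9 that passed, where 3.8% of all genes passed in either direction and 1.85% were higher. The median over the 9 was 0.23, against -0.02 over all genes. These comparisons share their control arrays with those of restraint alone.

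Non-overlapping groups were seen for 2 of 9 genes in each experiment, where groups of 3 against 5 arrays were separate for 11.8% of all genes in experiment 1 and 7.13% in experiment 2. In experiment 1 these were Cd14 and Vcan, both higher, with Vcan undetected on all 5 controls. In experiment 2 they were Cd14, which was higher, and Cx3cr1, which read 7.25, 6.83 and 6.40 on the propranolol arrays against 7.68, 7.30, 8.73, 8.58 and 8.32 on the controls. The arrays at 6.83 and 6.40 are on slide 4, which holds no control, so slide and condition cannot be told apart for them. The 6.40 is from the array of lowest weight (0.147). The array at 7.25 shares slide 3 with the controls at 8.58 and 8.32. The Cx3cr1 difference of -1.29 ± 0.36 in experiment 2 stood beside 0.35 ± 0.36 in experiment 1. For Cx3cr1 the experiments differed at an unadjusted limma p of 0.00354 without passing (adjusted p = 0.888), and the pooled change was -0.47 ± 0.29 (adjusted p = 0.405).

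Cd68 was 0.41 ± 0.21 above control (adjusted p = 0.313) and Vcan 0.71 ± 0.41 (adjusted p = 0.362), the latter detected on 5 of 6 propranolol arrays. Vcan in experiment 2 spread over 5.45, 4.55 and 7.67. The last value is from the array of lowest weight of all (0.147, with 39.5% of probes detected), and without it the fit gave 0.29 (adjusted p = 0.782). Csf1r was 0.35 ± 0.20 higher (adjusted p = 0.345), and Fcgr1 was detected on 4 of 6 arrays. Tnf and Cd83 rose by 1.54 ± 0.22 and 1.94 ± 0.20 (adjusted p = 0.000108 and 5.84e-06), the former losing its call with slide as a fixed term (1.19, adjusted p = 0.178).

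**Figure D4:**
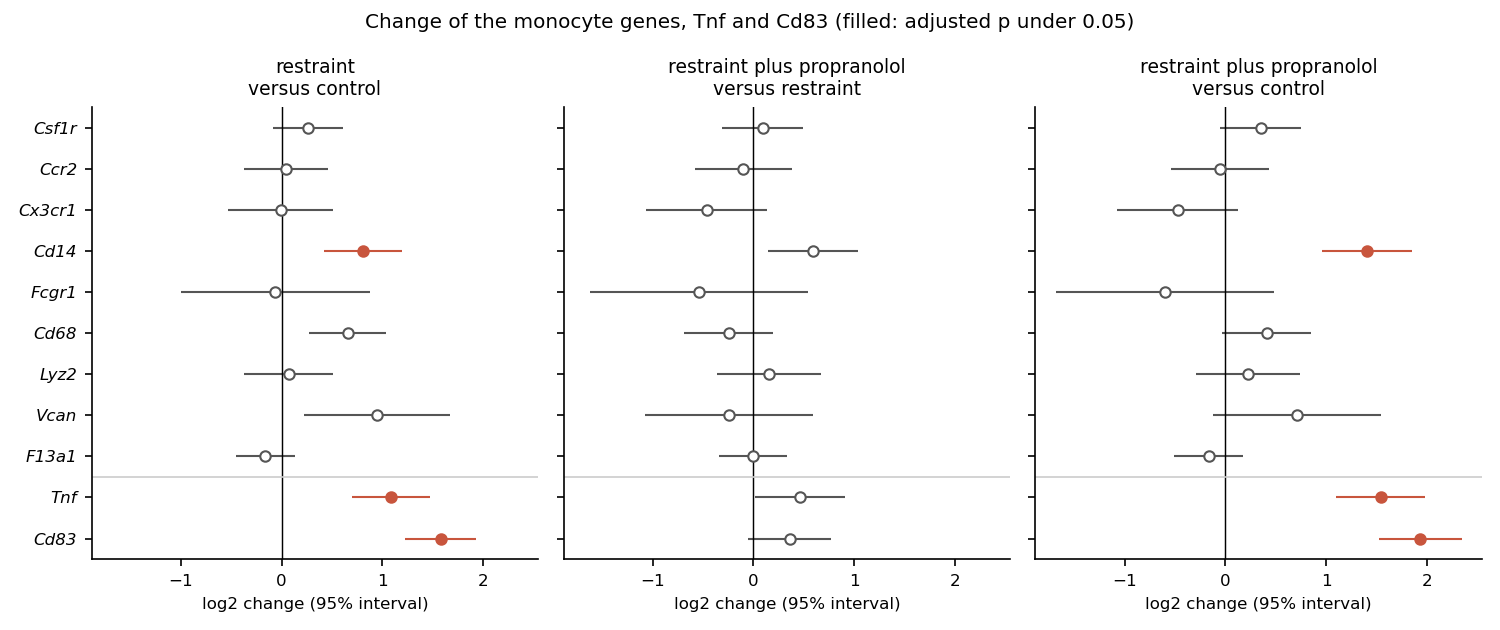
Log2 change (x axis) with its 95% interval for the 9 monocyte genes, Tnf and Cd83 in 3 comparisons, filled where the adjusted p was under 0.05. Cd14 is the only filled monocyte gene, at 0.81 and 1.40 against control, and no interval is filled between restraint plus propranolol and restraint.

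Ordered by group mean, Cd14 ran from 7.32 in the controls of experiment 1 to 9.17 in the propranolol arrays of experiment 2. It stepped by more than the larger neighbouring SD from the controls of experiment 2 (7.97) to the restraint arrays of experiment 1 (8.45). Another such step led from the restraint arrays of experiment 2 (8.47) to the propranolol arrays of experiment 1 (8.93). Both steps cross experiments and are no test of condition. Within each experiment the restraint and propranolol arrays overlapped for Cd14, and their difference did not pass (limma adjusted p = 0.683). Neither the 2 restraint groups (8.45 and 8.47), nor the 2 propranolol groups (8.93 and 9.17), nor the 2 control groups (7.32 and 7.97) differed by more than the larger SD. Cx3cr1 had a single such step, from the controls of experiment 1 (7.72) to the propranolol arrays of experiment 2 (6.83). That step also crosses experiments, and the limits of slide and array weight given above hold for it. For the other 7 genes no neighbouring groups differed by more than the larger SD.

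Genes around the 9 in their pathways were grouped by role, from lists chosen with earlier results of these data known. Under restraint 2 of the 75 measured genes in 8 lists passed, Tlr2 and Hmox1, both higher. That is 2.67%, near the 2.23% of all genes. Among 9 CD14 partners and signalling genes, Tlr2, a receptor for bacterial lipoproteins that also works with CD14, rose by 0.73 ± 0.16 (adjusted p = 0.0153). The lipopolysaccharide receptor Tlr4 (-0.00 ± 0.23) and its partner Ly96 (0.10 ± 0.17) did not pass; they are named because they form the receptor complex of CD14, not by the rule for named genes. The median of this list was 0.14.

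Of 15 measured tissue macrophage genes, Hmox1, which degrades heme, rose by 1.01 ± 0.27 (adjusted p = 0.0439), and 14 did not pass. Of 5 measured ligands and carriers for these receptors 0 passed. All 5 values were positive, with a median of 0.57, and Lbp, whose product carries lipopolysaccharide to CD14, was at 0.26 ± 0.21. Of 10 monocyte transcription factors 0 passed, and the smallest p-values belonged to Runx1, which controls blood cell formation (-0.58 ± 0.17, adjusted p = 0.0735), and Klf4, which promotes monocyte differentiation (0.42 ± 0.13, adjusted p = 0.109).

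Of 12 lysosomal and phagocytic genes 0 passed, with Ctsd, a lysosomal protease, at 0.46 ± 0.14 (adjusted p = 0.0759) and Grn at 0.23 ± 0.14 (adjusted p = 0.490). The 12 measured classical monocyte genes also gave 0, with a median of 0.03, led by S100a4 (0.50 ± 0.18) and Ms4a6d (0.31 ± 0.26). The 8 measured nonclassical genes gave 0, led by Ace (0.64 ± 0.24), an angiotensin-converting enzyme found on patrolling monocytes, and Cd300e (0.90 ± 0.45). Of 5 Fc receptor genes and adaptors 0 passed, with a median of 0.15 and Fcgr2b at 0.48 ± 0.21.

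With propranolol against control 3 of the 75 genes passed (4%, where 3.8% of all genes did). Tlr2 again rose (1.00 ± 0.18, adjusted p = 0.00179). Lbp rose by 0.86 ± 0.24 (adjusted p = 0.0412), and the inhibitory Fc receptor gene Fcgr2b by 0.84 ± 0.24 (adjusted p = 0.0488). Hmox1 was 1.07 ± 0.31 higher but did not pass there (adjusted p = 0.0518). Against restraint alone 0 genes of the 8 lists passed.

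**Figure D5:**
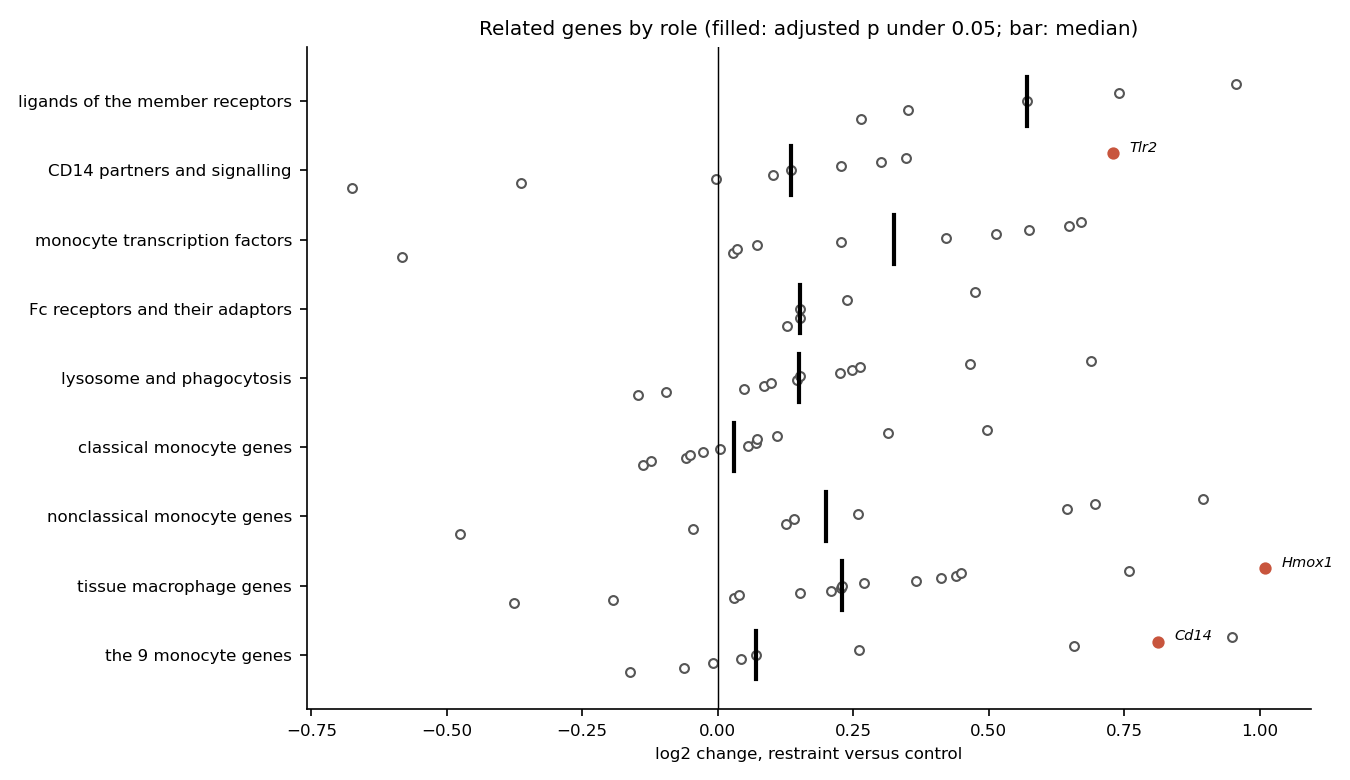
Log2 change under restraint (x axis) of each measured gene in 8 related lists and of the 9 monocyte genes (rows), filled and named where the adjusted p was under 0.05, with the median of each row as a bar. Only Tlr2, Hmox1 and Cd14 are filled, and the classical monocyte genes cluster near 0 with a median of 0.03.

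Markers of other marrow cells moved with restraint. Of 13 measured erythroid markers 6 were called lower, where 1.2% of all genes were. Among them were Alas2 (-2.63, detected on 10 control and 8 restraint arrays) and Klf1 (detected on 7 and 2). Gata1 was also called lower but was detected on 6 control and 0 restraint arrays, so its restraint level has only a bound. The mean level of the list lay between 5.69 and 9.13 on control arrays and between 5.29 and 7.17 on restraint arrays, with 5.05 to 8.28 on propranolol arrays. Of 7 measured B lineage markers 2 were called lower, Rag1 (-2.05, detected on 10 control and 3 restraint arrays) and Vpreb3 (detected on 4 and 0), with mean levels of 5.33 to 7.26 on control, 5.01 to 5.63 on restraint and 5.17 to 5.87 on propranolol arrays. With propranolol against control, Gata1 and Rag1 were called lower, where 1.95% of all genes were. With slide as a fixed term, the genes called lower under restraint fell from 129 to 16 of 10792. The marker calls themselves were not computed under other settings. The part of these shifts in the Cd14 result was not tested. Of 19 neutrophil granule and mature neutrophil markers 0 passed under restraint. The secondary granule list had mean levels of 11.17 to 11.51 on control and 11.10 to 11.52 on restraint arrays. For propranolol against control, 1 of 7 measured mature neutrophil markers was called higher, where 1.85% of all genes were.

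The genes most like each of the 9 were found by Pearson r over the 26 arrays, given as a description since the arrays share the conditions. Those most like Cd14 were Tgif1 (r = 0.91), which represses TGF-beta targets, Sod2 (r = 0.90), the mitochondrial superoxide dismutase, and Dusp16 (r = 0.85), a phosphatase of MAP kinases. Under restraint these 3 rose by 0.80, 0.50 and 1.21 (adjusted p = 0.00213, 0.00638 and 0.00112). For the other 8 genes, 0 of the 24 most alike genes passed under restraint. All these genes were picked on the same arrays with the conditions pooled, so their p-values are no separate support.

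Csf1r was most like Fcgrt (r = 0.93), the neonatal Fc receptor, Otulin (r = 0.87) and Irf5 (r = 0.86), an interferon regulatory factor of myeloid cells. Cd68 was most like Clec4n (r = 0.85), a fungal lectin receptor also called Dectin-2, Gngt2 (r = 0.84) and Piwil2 (r = 0.83). Fcgr1 was most like Slfn5 (r = 0.82), Ms4a6b (r = 0.74) and Zbp1 (r = 0.71), a sensor of nucleic acids induced by interferon. Cx3cr1 was most like Clec10a (r = 0.72), Ctsa (r = 0.71) and Sap30l (r = 0.70).

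Lyz2, read from probe ILMN_1252076, was most like Rps2 (r = 0.92), Eno1 (r = 0.91) and Hnrnpf (r = 0.89), genes of ribosome, glycolysis and RNA processing. Within groups that probe gave r of only -0.17 and 0.28 with the brighter probes of Lyz2, so this likeness belongs to the probe. Ccr2 was most like Slc25a17 (r = 0.82), Cetn2 (r = 0.79) and Zfp386 (r = 0.77). Vcan was most like Trib3, Manbal and Mtch2 (r = 0.77 to 0.78), and F13a1 was most like Erlec1, Dcun1d2 and LOC234374 (r = 0.67 to 0.68).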

How the data were processed

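RNA from sorted mouse marrow leukocytes was amplified with NuGEN Ovation PicoSL and hybridised to Illumina MouseRef-8 v2.0 beadchips, per the labels' protocols, with values from GenomeStudio per the submitters' processing notes. The authors deposited raw mean intensity per probe, the detection p-value of each, and a matrix of normalized intensities, whose log2 values served as an alternative. A further 6 arrays in the raw table were not used.

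Raw intensities were background-corrected and quantile normalized with limma 3.58.1 in R 4.3.3 (neqc, offset 16, negative controls inferred from the detection p-values). The filter on dim probes asked for a detection p under 0.05 on 3 or more arrays and left 15061 of 25697. Names came from the Entrez identifier for 23788 probes, the accession for 1148, a synonym for 98 and the symbol for 99, with 564 left as the file names them. A gene is represented by its brightest kept probe, except Lyz2, which is read from the probe listed under that symbol, the dimmest of its 3. Conditions were compared over 26 arrays with experiment as a covariate, by limma with Benjamini-Hochberg adjustment over all kept probes. A model of 6 groups gave values within experiments and their difference. Errors of changes are standard errors of the fit, except for Tnf and Cd83 set against each gene, which were tested by exact permutation. Correlations used 100000 permutations within groups. The limma step was tested on simulated data.

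The genes and lists were chosen with earlier results of these data known. The genes named are the 9, Tnf, Cd83, the 3 most alike genes of each of the 9, and, of the related lists, those that passed or, where none passed, the 2 with the smallest p. Lists covered ligands, CD14 partners, transcription factors, Fc receptors, lysosome, classical, nonclassical and tissue macrophage genes, and markers of other marrow cells. Marker lists for T cells, NK cells, dendritic cells, megakaryocytes, eosinophils with basophils and mast cells, stem cells, osteoclasts and stroma gave 0 genes past the threshold in each comparison. The alternatives tried were raw or median scaling, the authors' matrix, other probe filters, averaged probes, array weights, slide as a fixed term or random block, a replicate block, other models, and each array left out. Promoter sequences are from RefSeq (GRCm38.p6).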

Additional observations from a re-analysis of the deposited data

Results flagged for a closer look

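In 4 groups 1 array lay far from the others, among 48 groups of 5 arrays tested, and chance gives about 1 in 20. The fourth control of experiment 2 had Vcan at 7.122 where the nearest control of that experiment read 4.677, and it is also an array of low weight (0.201). The fourth restraint array of experiment 2 had the dimmer Csf1r probe at 4.348 where the nearest read 5.564. The fifth control of experiment 1, also of low weight (0.289), had F13a1 at 8.555 where the nearest read 9.254, and Tnf at 6.223 where the nearest read 7.247. Without that array the Cd14 change under restraint was 0.79 (limma adjusted p = 0.0419).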

How the results depend on the processing

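Of 462 changes computed under settings that kept all arrays, within slides or without the low-weight arrays, 433 kept their direction and their side of the threshold, 4 gained and 4 lost a call, and 21 turned sign. With each array left out in turn another 33 turned sign, 54 in all. None of the 54 belonged to a change that had passed, and the cause was not tested. Within slides the threshold was applied to the unadjusted exact permutation p. Vcan within slide 1 is among the gained calls on that basis, and Cd14 within slide 3 among the lost. On slide 2 that p cannot fall under 0.1, so no call could arise there. Of the 241 genes called under restraint, counts became 149 with median scaling, 135 with no filter on dim probes, 713 with array weights, 78 with slide as a fixed term and 400 without the 3 arrays of lowest weight, and 106 to 338 with an array left out. The share called higher was 46.5% in the reported fit, 58.5% with no filter on dim probes and 79.5% with slide as a fixed term. Of the 9 genes, 3 were called with array weights, 0 with slide as a fixed term, 2 without the arrays of lowest weight and 0 to 2 with an array left out. For propranolol with restraint against restraint, 7 genes were called with array weights, 1 with only the 2 conditions and 0 to 2 with an array left out. Against control, the 410 genes became 928 with array weights, 23 with slide as a fixed term and 234 to 504 with an array left out, and 0 of the 9 genes passed with slide as a fixed term.

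Under restraint, Cx3cr1 turned to 0.0045 with median scaling, 0.055 without the low-weight arrays and 0.22 within slide 1. Lyz2 turned to -0.0062 with probes averaged, -0.17 without the low-weight arrays and -0.073 within slide 1. Fcgr1 turned to 0.13 with array weights, 0.18 without the low-weight arrays and 0.56 within slide 1. Ccr2 turned to -0.032 with array weights and -0.17 without the low-weight arrays, and Vcan to -0.11 within slide 3. For propranolol against restraint, Csf1r turned to -0.078 with array weights, -0.044 with slide as a fixed term, -0.035 without the low-weight arrays and -0.11 within slide 2, and F13a1 to 0.056 with median scaling and 0.060 with slide as a fixed term. Against control, with slide as a fixed term, Ccr2 turned to 0.062 and Vcan to -0.30.

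With an array left out, changes under restraint ran from -0.15 to 0.10 for Cx3cr1, -0.28 to 0.19 for Fcgr1, -0.068 to 0.14 for Ccr2 and -0.094 to 0.18 for Lyz2. Against restraint, propranolol values ran from -0.074 to 0.10 for F13a1, -0.28 to 0.018 for Ccr2, -0.034 to 0.16 for Csf1r and -0.65 to 0.00057 for Vcan, and against control from -0.24 to 0.061 for Ccr2.

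Same-numbered arrays were no more alike than others: 4 of 22 such pairs correlated over 0.1 (median r = 0.02), as did 23 of 88 other pairs (median r = 0.01). Whether they share more than a number was not tested. The replicate block called 261 genes under restraint, 240 for propranolol against control and 0 against restraint, left the calls among the 9 genes at 1, 1 and 0, and turned Csf1r to -0.049 in the last. Dim probes such as Vcan and Fcgr1 limit what can be resolved near background.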
